A study of Mus musculus with 8 samples.

Results

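Aminoacyl-tRNA synthetases are the enzymes that load each amino acid onto its transfer RNA. Mouse cells carry one nuclear-encoded set for the cytosol and another, also nuclear-encoded, that is imported into mitochondria and serves the translation of the proteins encoded in mitochondrial DNA. Cytosolic synthetase genes are known targets of ATF4, the transcription factor of the amino acid and integrated stress response, whereas mitochondrial translation supplies subunits of the respiratory chain, on which the heart muscle cell relies. The members described here are 36 genes taken by symbol from the deposited expression table, 20 for cytosolic enzymes and 16 for mitochondrial enzymes (symbols ending in 2), of 23205 gene symbols in all. Where a symbol had several rows, the row of highest mean stood for it. Glycine and lysine have no separate mitochondrial member because Gars and Kars each encode both forms, and mitochondrial glutamine transfer RNA is made through Ears2.

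Ventricles of C57BL/6 mice were sampled at postnatal day 21, with 4 libraries from mice with a cardiac knockout of Med1 (Med1cKO) and 4 from Med1fl/fl mice, in which the gene carries the floxed allele but is intact (WT). Both groups are of the same strain, age and tissue. Med1 belongs to Mediator, which connects transcription factors with RNA polymerase II, and the comparison asks which ventricular transcripts change when it is deleted. The sources used here give neither the promoter that drove the deletion nor whether each library was 1 mouse, so that p-values measure the spread between these samples, which may be technical.

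Expression was given in FPKM, fragments normalized to transcript length and to the fragments mapped in the library. The FPKM of a knockout library summed to between 481650 and 502549, and that of a WT library to between 507458 and 536146, and 11525 to 12272 genes per library reached 1 FPKM. How many fragments each library holds is unknown, so no counting interval is given. Med1 was at 7.80 to 9.15 FPKM in the knockout and at 10.6 to 16.8 FPKM in WT (log2 change -0.74, adjusted p = 0.0011). A change is called where limma on log2(FPKM + 1) gave a Benjamini-Hochberg adjusted p under 0.05 among the 11974 genes whose mean over all libraries reached 1 FPKM, and all 36 synthetase genes were among them. In that test 44.9% of all genes were called higher in the knockout and 16.4% lower, and the median log2 change of all genes was 0.25. After median-of-ratios rescaling, which sets the libraries to a common median, 27.0% were called higher, 26.9% lower, and the median was 0.01. Values below are as deposited unless given as rescaled. The 6 cardiomyocyte markers, all called lower, summed to 10293 to 14476 FPKM in the knockout and 26208 to 32052 in WT. Of the 6 fibroblast markers 4 were called higher as deposited and 2 after rescaling, and they summed to 651 to 1081 against 508 to 596 FPKM. KO4 stood apart by atrial markers (1762 FPKM, with 22.0 to 168 in the other knockout libraries and 3.77 to 6.34 in WT) and by adipocyte markers (57.4 against at most 6.08 FPKM elsewhere).

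The 2 sets moved apart. Among the 20 cytosolic synthetase genes 15 rose, 1 fell and 4 were not called, and their median log2 change was 0.55. Among the 16 mitochondrial synthetase genes none rose, 10 fell and 6 were not called, and their median was -0.39. In 14 cytosolic genes all knockout libraries lay above all WT libraries, and in 1 all lay below, against 41.7% and 15.3% of all genes tested. No mitochondrial gene lay above and 10 lay below. The count of cytosolic genes called higher (15 of 20) is to be read against a background of 44.9%, and that of mitochondrial genes called lower (10 of 16) against 16.4%. Rescaling left 12 cytosolic genes higher and 2 lower, with a median of 0.28, and called all 16 mitochondrial genes lower, with a median of -0.63.

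**Figure D1:**
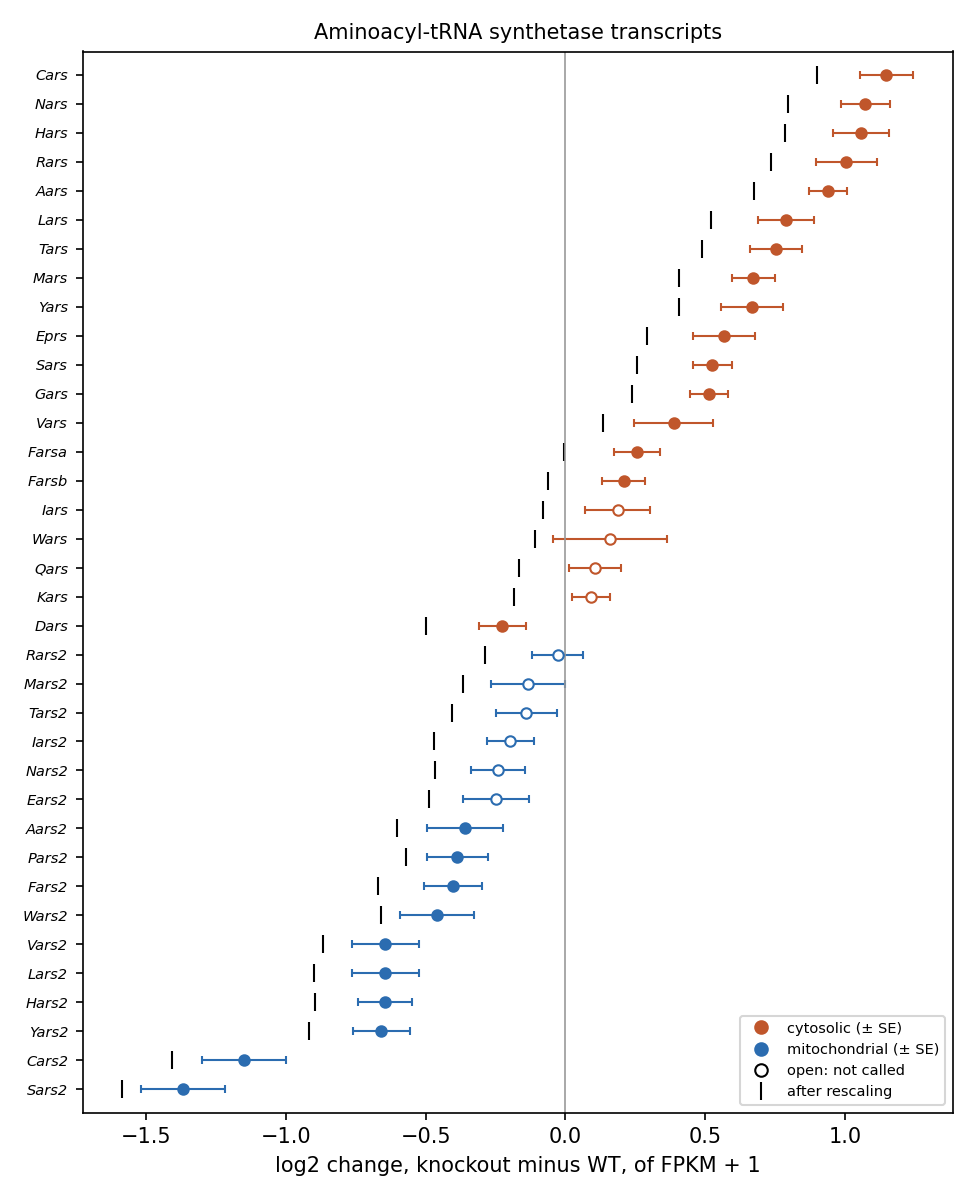
Log2 change (knockout minus WT, of FPKM + 1) of each of the 36 synthetase genes, with limma's standard error, 4 libraries per group. Filled points passed an adjusted p of 0.05, open points did not, and the black ticks are the changes after rescaling. Cytosolic genes run from -0.23 (Dars) to 1.15 (Cars) and mitochondrial genes from -1.37 (Sars2) to -0.03 (Rars2).

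The largest cytosolic rises were those of the enzymes for cysteine, asparagine, histidine, arginine, alanine and leucine. Cars, the cysteinyl-tRNA synthetase (chromosome 7, 143557230 to 143600090, mm10), had 11.1, 13.0, 14.5 and 12.01 FPKM in KO1 to KO4 and 5.41, 5.48, 5.10 and 4.56 FPKM in WT1 to WT4. All knockout libraries were above all WT libraries, and the least abundant cytosolic member of WT ventricles was no longer so in the knockout. Its means were 12.6 ± 1.45 and 5.14 ± 0.419 FPKM (SD, n = 4 each). This is a log2 change of 1.15 with SE 0.095 (limma adjusted p = 1.17e-05). Nars, the asparaginyl enzyme, had 87.1, 71.0, 82.1 and 72.3 FPKM in the knockout and 39.6, 36.8, 34.2 and 35.5 in WT. With a knockout mean of 78.1 FPKM it was the most abundant synthetase transcript there, where Kars held that place in WT with 53.7 FPKM. The log2 change of Nars was 1.07 (SE 0.087, limma adjusted p = 1.09e-05).

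Hars, the histidyl enzyme, had 41.2, 41.7, 51.1 and 45.0 FPKM in the knockout against 24.3, 19.1, 20.005 and 20.5 in WT (log2 change 1.06, limma adjusted p = 2.35e-05). Rars, the arginyl enzyme and a member of the multisynthetase complex, had 35.4, 35.4, 45.0 and 46.0 FPKM against 21.2, 17.6, 19.4 and 19.9 (log2 change 1.01, limma adjusted p = 5.23e-05). For both genes the lowest knockout library exceeded the highest WT library by more than the spread within either group. Aars, the alanyl enzyme (chromosome 8, 111033967 to 111056870), was the steadiest of these, with 29.0, 25.6, 27.7 and 25.6 FPKM against 13.6, 13.4, 13.4 and 13.9 (log2 change 0.94, limma adjusted p = 5.89e-06). Lars, the leucyl enzyme, which also serves as a leucine sensor for mTORC1, had 27.8, 26.6, 35.4 and 30.3 FPKM against 18.9, 16.5, 15.8 and 16.5 (log2 change 0.79, limma adjusted p = 0.000141). These 6 genes remained called higher in all 19 alternative analyses, rescaling and the omission of each library included.

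The other cytosolic rises ran from 0.21 to 0.75 on the log2 scale. Those of Tars (0.75), Mars (0.67), Yars (0.67), Eprs (0.57), Sars (0.53) and Gars (0.51) were also called after rescaling. Eprs is a fusion of the glutamyl and prolyl enzymes. The smaller rises of Vars (0.39), Farsa (0.26) and Farsb (0.21) were not called after rescaling, where their log2 changes were 0.14, -0.01 and -0.06. Their calls also rested on single libraries. That of Vars was lost without KO2, KO3, KO4, WT2 or WT4 in turn (limma adjusted p from 0.0732 to 0.0984), that of Farsb without KO3, KO4, WT1, WT3 or WT4 (0.0587 to 0.113), and that of Farsa without WT2 or WT4 (0.061 and 0.0535). Farsa and Farsb encode the 2 kinds of subunit of the phenylalanyl enzyme and had changes within 1 SE of each other.

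Dars, the aspartyl enzyme, was the only cytosolic member called lower as deposited. Its values were 27.7, 30.4, 32.3 and 31.9 FPKM in the knockout and 40.1, 35.3, 32.8 and 35.7 in WT. The groups did not overlap, but KO3 and WT3 lay within 1 FPKM of each other. The log2 change was -0.23 (SE 0.084, limma adjusted p = 0.0402), and -0.50 after rescaling (adjusted p = 0.000883). The call was lost without KO1, KO2, WT1, WT2 or WT4 in turn (adjusted p from 0.0672 to 0.107). The 4 genes with no call were Iars, Kars, Qars and Wars, with log2 changes of 0.19, 0.09, 0.11 and 0.16, all of which were below 0 after rescaling. For Kars the rescaled change of -0.19 was called (limma adjusted p = 0.0386). Iars was called higher without KO1, in which it was lowest at 15.8 FPKM against 20.7 to 22.9 in the other knockout libraries (log2 change 0.30, limma adjusted p = 0.00964).

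Wars, the tryptophanyl enzyme and a known interferon-induced gene, turned on 1 library. It had 21.8, 24.5, 26.0 and 24.2 FPKM in the knockout and 18.04, 35.5, 17.2 and 19.0 in WT. The knockout libraries lay above WT1, WT3 and WT4 and below WT2. Without WT2 its log2 change was 0.39 in place of 0.16 (limma adjusted p = 0.00462 in place of 0.515). WT2 was also the highest library for the interferon response genes Gbp3, at 23.1 FPKM against 5.85 to 12.9 in the other WT libraries, and Gbp2, at 19.4 against 5.82 to 9.58. Their part in the value of Wars was not tested.

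Cytosolic synthetases fall into 8 that are held in the multisynthetase complex and 12 that are free, a division applied after the values were seen. Of the complex members Eprs, Lars, Mars and Rars rose, Dars fell, and Iars, Kars and Qars were not called, with a median log2 change of 0.38. Of the free enzymes 11 rose and Wars was not called, with a median of 0.60. By the structural class assigned to each gene, 7 of 10 in class I rose and none fell. In class II 8 of 10 rose and Dars fell. Eprs, the fusion of the glutamyl and prolyl enzymes, was counted in class I alone, and both Farsa and Farsb in class II. The median changes of the classes were 0.62 and 0.52. After rescaling 4 complex members were higher and 2 lower, and 8 free enzymes were higher and none lower. By class 6 of 10 were then higher in each, with none lower in class I and 2 lower in class II. All these counts are to be read against the 44.9% of all genes called higher and the 16.4% called lower as deposited. After rescaling the shares of all genes were 27.0% and 26.9%. As deposited the 4 of 8 complex members called higher and the 1 of 8 called lower lie near these shares. Those 2 counts are thus no result about the complex. No test of these divisions was made.

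Among mitochondrial members the largest falls were those of the seryl, cysteinyl, tyrosyl, histidyl, leucyl and valyl enzymes. Sars2 (chromosome 7, 28741968 to 28753879) had 1.47, 2.73, 1.76 and 2.78 FPKM in the knockout and 7.30, 6.15, 7.69 and 7.27 in WT. Every knockout library was below 3 FPKM and every WT library above 6 FPKM. Its means were 2.18 ± 0.670 and 7.10 ± 0.661 FPKM (SD, n = 4 each), or 30.7% of WT in the knockout (log2 change -1.37, SE 0.151, limma adjusted p = 5.83e-05). Cars2 (chromosome 8, 11514017 to 11550771) had 5.94, 10.7, 7.24 and 8.64 FPKM against 19.4, 17.7, 17.4 and 21.3. In the knockout its mean stood at 42.9% of WT (log2 change -1.15, SE 0.151, limma adjusted p = 0.000162), whereas its cytosolic counterpart Cars had the largest rise of the 36 genes.

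The next falls were of like size. Yars2 had 7.44, 10.7, 8.52 and 9.27 FPKM in the knockout and 13.8, 14.8, 14.8 and 15.3 in WT (log2 change -0.66, limma adjusted p = 0.000427). Hars2 had 5.05, 6.64, 6.98 and 6.15 FPKM against 10.2, 9.62, 10.2 and 10.9 (log2 change -0.65, limma adjusted p = 0.000349). In both genes the groups were well apart, and the knockout libraries spread more widely than WT. Lars2 had 6.20, 9.89, 8.43 and 8.26 FPKM against 12.5, 12.8, 13.8 and 14.0 (log2 change -0.64, limma adjusted p = 0.00124). Vars2 had 2.50, 3.78, 2.82 and 3.19 FPKM against 5.78, 5.89, 5.23 and 4.50 (log2 change -0.64, limma adjusted p = 0.00125). Vars2 is among the less abundant members, and its lowest WT library, WT4, was still above its highest knockout library, KO2.

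Wars2 (-0.46), Fars2 (-0.40), Pars2 (-0.39) and Aars2 (-0.36) were also called lower. Aars2 was the weakest of these, with KO2 at 8.26 FPKM inside the WT range of 7.61 to 9.23 FPKM, and its call was lost when any library other than KO2 was left out (limma adjusted p from 0.0588 to 0.112). Ears2, Iars2, Mars2, Nars2, Rars2 and Tars2 were not called as deposited, with log2 changes from -0.25 to -0.03. Nars2 missed the threshold (limma adjusted p = 0.0556) although its knockout libraries, at 3.19 to 4.45 FPKM, were all below WT at 4.51 to 4.99 FPKM. Nars2 was called lower without KO2 (limma adjusted p = 0.0314), as were Ears2 without KO2 (0.0164) and Iars2 without KO1 (0.0163). Iars2, the most abundant mitochondrial member in both groups (35.3 FPKM in the knockout and 40.5 in WT), had a log2 change of -0.20. The 6 genes were called lower after rescaling, with Rars2 the nearest to 0 at -0.29 (limma adjusted p = 0.0324). As deposited Rars2 was at 11.5 to 13.1 FPKM in the knockout and 11.6 to 14.7 in WT.

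**Figure D2:**
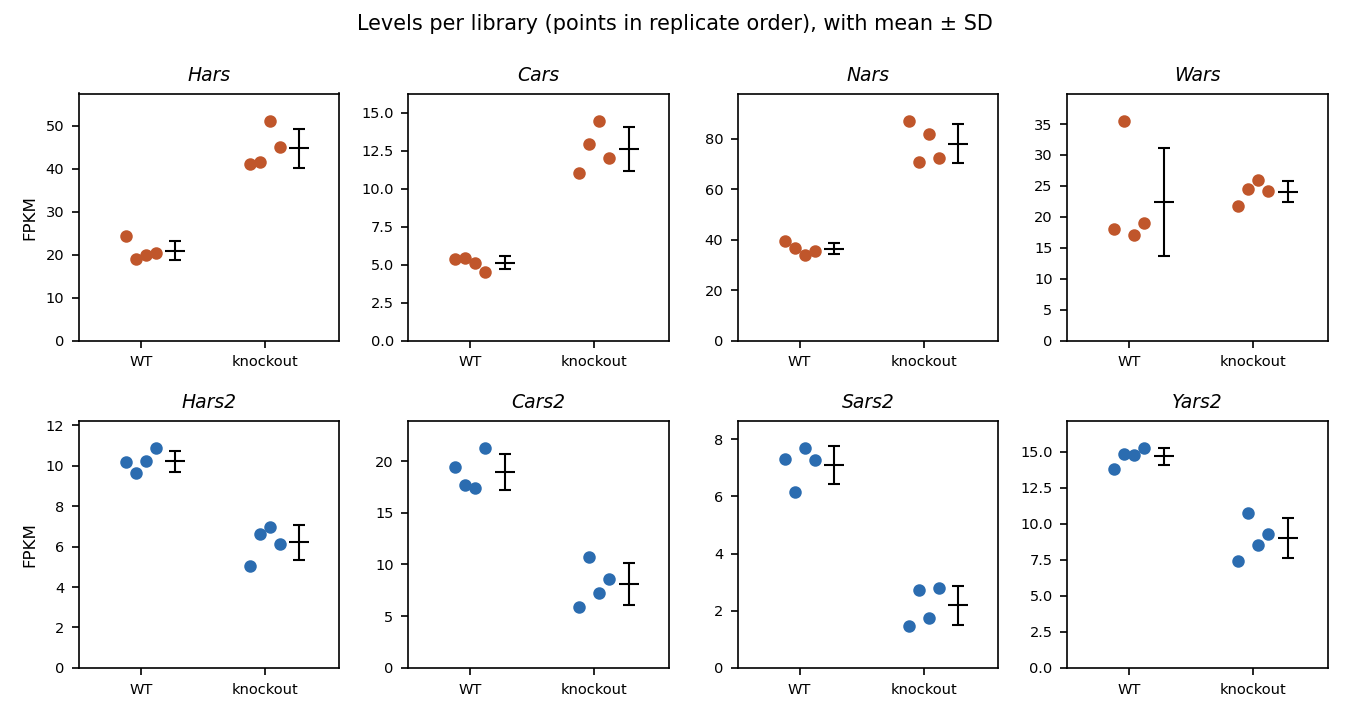
FPKM per library of 4 cytosolic genes (upper row) and 4 mitochondrial genes (lower row), as points from replicate 1 at the left to 4 at the right within a group, beside the mean and SD (n = 4 each). The groups are apart in each panel except that of Wars, where WT2 at 35.5 FPKM lies above all knockout libraries.

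Levels per length shifted with the changes. In WT the cytosolic members had a median of 18.7 FPKM and the mitochondrial members a median of 9.25 FPKM. In the knockout the medians were 28.5 and 6.26 FPKM. The 20 cytosolic genes summed to 625, 602, 671 and 658 FPKM in KO1 to KO4 and 461, 443, 424 and 431 in WT1 to WT4, or 145% of WT in the knockout on average. The 16 mitochondrial genes summed to 134, 165, 147 and 141 FPKM in the knockout and 195, 194, 202 and 208 in WT, or 73.3% of WT. For neither set did the sums of the groups overlap.

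The libraries were not ordered alike in the 2 sets. KO1 was the lowest knockout library for 11 of 16 mitochondrial genes and KO2 the highest for 9, whereas among cytosolic genes KO1 was lowest for 8 of 20 and highest for 5. The sum of cardiomyocyte markers, at 10293, 14476, 12286 and 11347 FPKM in KO1 to KO4 and 30578, 26208, 30599 and 32052 in WT1 to WT4, had the same order of libraries within each group as the mitochondrial synthetase sum. The marker sum of the knockout was 40.5% of WT, a larger fall than that of the mitochondrial synthetases. In whole ventricle fewer cardiomyocytes and less RNA per cardiomyocyte cannot be told apart, and the part of either in the synthetase values was not tested.

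**Figure D3:**
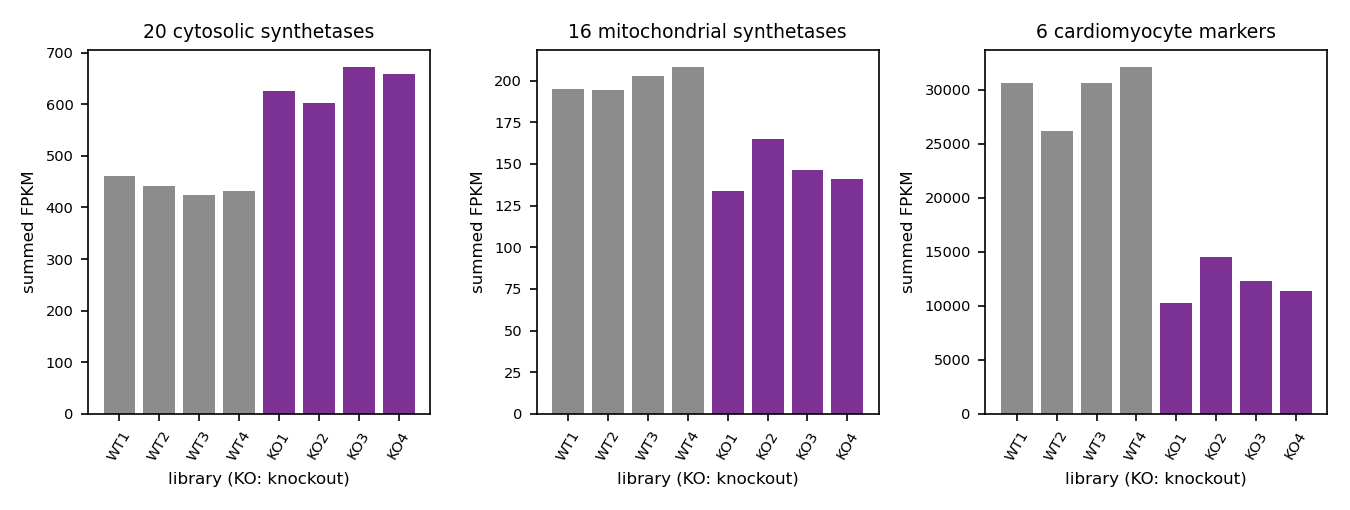
Summed FPKM of the 20 cytosolic synthetase genes, the 16 mitochondrial synthetase genes and 6 cardiomyocyte markers in each library, WT in grey and knockout in purple. Cytosolic sums are higher in every knockout library (602 to 671 against 424 to 461 FPKM), while mitochondrial sums (134 to 165 against 194 to 208 FPKM) and marker sums are lower.

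Within a library a common scale factor largely cancels between a cytosolic gene and the mitochondrial gene for the same amino acid, so the ratio of the 2 tests the divergence itself. Of 17 such pairs the log2 ratio was higher in all knockout libraries than in all WT libraries in 15, each with an exact two-sided permutation p of 0.0286, which is the lowest value possible with 70 assignments. In no pair was it lower throughout. The differences ran from 0.38 to 2.30 with a median of 1.03. Among all pairs of tested genes 52.3% had ratios without overlap between the groups, in either direction. Of all 320 combinations of a cytosolic with a mitochondrial member, matched or not, 84.4% were higher in every knockout library and none lower in every one, and 15 of 17 is to be read against that.

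Cars and Cars2 exchanged their order. Their log2 ratio was 0.80, 0.26, 0.91 and 0.43 in KO1 to KO4 and -1.67, -1.53, -1.60 and -2.002 in WT1 to WT4, so that the mitochondrial transcript was the more abundant in every WT library and the cytosolic one in every knockout library. The difference was 2.30 (SE 0.186), and the mean ratio of FPKM was 0.274 in WT and 1.62 in the knockout. For Sars over Sars2 the log2 ratios were 3.51, 2.83, 3.25 and 2.89 in the knockout and 1.26, 1.33, 1.20 and 1.12 in WT, a difference of 1.89 (SE 0.166). For Hars over Hars2 they were 2.80, 2.48, 2.71 and 2.68 against 1.18, 0.92, 0.90 and 0.86, a difference of 1.70 (SE 0.099). In these 3 pairs the lowest knockout ratio exceeded the highest WT ratio by more than the range within either group.

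The other pairs without overlap were those of leucine (1.43), tyrosine (1.33), asparagine (1.31), alanine (1.30), arginine (1.03), valine (1.03), threonine (0.89) and methionine (0.81), those of Eprs with Pars2 (0.95) and with Ears2 (0.81), and those of Farsa (0.66) and Farsb (0.61) with Fars2. The pairs that share Eprs or Fars2 are not independent. Iars over Iars2 (0.38, exact permutation p = 0.143) and Wars over Wars2 (0.62, exact permutation p = 0.114) overlapped. The overlap came from KO1 alone for Iars over Iars2 and from WT2 alone for Wars over Wars2. Leaving that library out removes the overlap by construction, and the differences were then 0.55 and 0.86. The cytosolic transcript had the higher FPKM in all WT libraries in 11 of the 17 pairs and in all knockout libraries in 15. The mean log2 level of the cytosolic set exceeded that of the mitochondrial set by 1.94 ± 0.164 in the knockout and 0.915 ± 0.0858 in WT (SD, n = 4 each), a difference of 1.03.

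**Figure D4:**
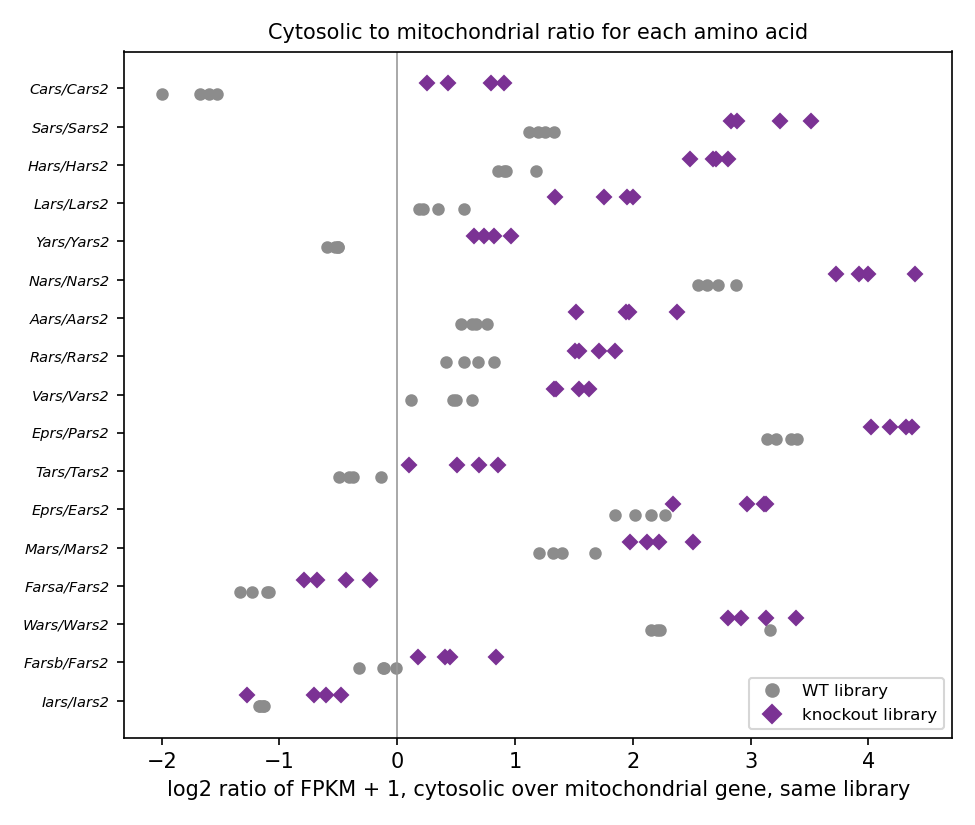
Log2 ratio of FPKM + 1 of the cytosolic over the mitochondrial gene for the same amino acid in each library, grey circles for WT and purple diamonds for knockout, ordered by the difference between groups. In 15 of 17 pairs every knockout library lies to the right of every WT library, and for Cars/Cars2 the sign changes from WT to knockout.

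The promoters of 27 of the 36 genes were found by symbol in RefSeq (build GRCm38.p6, from 250 bases before to 50 bases after a start site). They were searched on both strands for TGATGNAA, the core of the C/EBP-ATF response element to which ATF4 binds, for GCGCANGCG, a form of the NRF1 site, and for CCGGAAG, a form of the ETS site. No motif contains another. Cars, Hars, Lars, Nars, Rars, Vars, Wars, Hars2 and Pars2 had no promoter there and were not searched. Of the largest cytosolic rises given above, only that of Aars is thus covered. TGATGNAA was present in 5 of 13 cytosolic promoters (Aars, Gars, Iars, Tars and Yars), in 0 of 14 mitochondrial promoters and in 4.51% of 27025 genes. GCGCANGCG was present in 3 of 13 cytosolic promoters (Farsb, Kars and Tars), in 4 of 14 mitochondrial promoters (Iars2, Mars2, Vars2 and Wars2) and in 7.03% of genes. CCGGAAG was present in 5 of 13 and 4 of 14, and in 9.93% of genes. A match is a description of letters, not of binding. The RefSeq start can differ from the locus start in the deposited table.

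The windows that hold TGATGNAA are shown because they mark letters found in the cytosolic and not in the mitochondrial promoters examined, written 5′ to 3′ on the strand of the gene with the match in capitals and 10 bases on each side. The match runs on the strand of the gene in Yars (chr4:129189896-129189923, plus strand) and on the opposite strand in the others, so that it reads there as its reverse complement. These are Gars (chr6:55037961-55037988, plus strand), Aars (chr8:111033841-111033868, plus strand), Iars (chr13:49682127-49682154, plus strand) and Tars (chr15:11399656-11399683, minus strand).
Yars: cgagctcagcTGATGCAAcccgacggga
Gars: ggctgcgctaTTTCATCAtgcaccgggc
Aars: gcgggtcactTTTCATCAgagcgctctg
Iars: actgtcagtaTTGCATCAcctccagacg
Tars: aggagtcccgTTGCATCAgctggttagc
Of these genes Aars rose most (0.94) and Iars, which also holds a match, was not called (0.19). Mars, Sars and Eprs rose without a match in this window.

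For longer context, the 250 bases before the start of Aars (chr8:111033592-111033841, plus strand), the member with the largest rise among those with a promoter in the table, are set beside those of Sars2 (chr7:28741718-28741967, plus strand), the member with the largest fall. Capitals mark the second TGATGNAA match of Aars, which begins 112 bases before the start, and the CCGGAAG match of Sars2, which begins 154 bases before it, both on the opposite strand.
Aars: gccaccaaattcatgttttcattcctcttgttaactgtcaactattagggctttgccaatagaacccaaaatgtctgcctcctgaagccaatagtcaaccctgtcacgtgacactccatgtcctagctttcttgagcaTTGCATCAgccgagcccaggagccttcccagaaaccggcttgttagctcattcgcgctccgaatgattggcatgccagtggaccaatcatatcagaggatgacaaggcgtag
Sars2: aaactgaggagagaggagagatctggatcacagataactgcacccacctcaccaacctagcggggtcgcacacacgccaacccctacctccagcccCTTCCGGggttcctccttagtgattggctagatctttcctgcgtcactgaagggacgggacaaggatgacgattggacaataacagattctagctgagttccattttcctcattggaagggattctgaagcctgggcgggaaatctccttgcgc
Vars2 (chr17:35667621-35667649, minus strand) and Wars2 (chr3:99141016-99141044, plus strand) show the NRF1 form in capitals among mitochondrial members that fell.
Vars2: gagtcttttaCGCATGCGCctgcgtgtcc
Wars2: cagaggacagGCGCATGCGtagtaagcac
Iars2 and Mars2 hold the same form and were not called as deposited.

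Several members share a promoter region with a neighbour on the other strand, by the GENCODE annotation of the same build. Hars and Hars2 are such neighbours of each other, with starts 197 bases apart, and moved in opposite directions (1.06 and -0.65). Their annotated transcripts overlap at the starts in GENCODE, while their loci in the deposited table are 74 bases apart. Sars2 starts 172 bases from Mrps12, a mitochondrial ribosomal protein gene, which had a log2 change of -0.10 (limma adjusted p = 0.504) against -1.37 for Sars2. After rescaling Mrps12 was called lower (-0.38, limma adjusted p = 0.0323), against -1.59 for Sars2. Fars2 fell (-0.40), and Lyrm4, an iron-sulphur cluster assembly gene 114 bases away, was called higher as deposited (0.22, limma adjusted p = 0.0444) and not after rescaling (-0.03, limma adjusted p = 0.795). Yars rose (0.67) while S100pbp, 33 bases away, had a log2 change of -0.01 (-0.24 after rescaling, not called in either). Kars, Ears2 and Rars2 lie 75, 88 and 13 bases from Terf2ip (0.35), Ubfd1 (0.39) and Orc3 (0.23). As deposited these 3 neighbours were called higher and the 3 members were not called. After rescaling the neighbours were not called (0.11, 0.14 and -0.02) and the members were called lower (-0.19, -0.49 and -0.29). Mars overlaps Ddit3 on the other strand, and both rose (0.67 and 0.64). Whether the counting used strand is not given in the sources used here, so reads of overlapping genes may not have been separated.

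Related genes outside the 36 moved in both directions. Their counts are to be read against the 44.9% of all genes called higher and the 16.4% called lower as deposited, and against 27.0% and 26.9% after rescaling. Of 8 other synthetase and proofreading genes 4 rose and 3 fell. Tarsl2, a second cytosolic threonyl-tRNA synthetase, had 2.14, 3.73, 2.51 and 4.03 FPKM in the knockout and 16.2, 14.1, 15.6 and 16.3 in WT. It fell (log2 change -2.04, limma adjusted p = 6.74e-06) while Tars rose. Aarsd1, which has an alanyl-tRNA editing domain, fell by 1.10 on the log2 scale. Sepsecs, which makes selenocysteine on its transfer RNA, rose by 0.44. After rescaling none of the 8 was called higher and 4 were called lower. Of the 3 scaffold genes of the multisynthetase complex Eef1e1 rose (0.59), and Aimp1 (0.11) and Aimp2 (0.22) were not called. After rescaling none of the 3 was called.

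The partners of the mitochondrial enzymes did not move as one. Of 10 mitochondrial translation factors 8 fell and none rose, with a median of -0.61, and all 10 were called lower after rescaling. Mrrf, the ribosome recycling factor, had 7.28 to 11.3 FPKM in the knockout and 21.8 to 23.6 in WT (-1.16). Tufm, the elongation factor that brings charged transfer RNA to the ribosome, had 71.3 to 137 FPKM against 155 to 193 (-0.86). Ict1, a peptidyl-tRNA hydrolase of the mitochondrial ribosome, fell by 0.81, and Tsfm, the exchange factor of Tufm, fell by 0.69. By contrast 14 genes of mitochondrial transfer RNA processing and modification had 4 rises, 3 falls and a median of 0.02. The tRNA methyltransferase gene Trmt5 fell by 1.46 and Hsd17b10, a subunit of mitochondrial RNase P, fell by 0.56, whereas Pus1, a pseudouridine synthase (0.52), and Trnt1, which adds the CCA end (0.51), rose. After rescaling this list had 2 rises and 6 falls. Of 4 tested genes for mitochondrial glutaminyl and formylmethionyl transfer RNA, the amidotransferase subunits Qrsl1 fell (-0.90) and Pet112 rose (0.60), and 2 were not called.

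Of 24 tested genes of the ATF4 pathway 12 rose, 2 fell and 10 were not called, with a median of 0.55, and after rescaling 9 were higher and 6 lower. The 12 of 24 called higher lie near the 44.9% of all genes, and the 6 of 24 called lower after rescaling near the 26.9%, so these counts are no result about the list. Atf4 itself had 81.6, 112, 90.6 and 96.2 FPKM in the knockout and 48.1, 57.5, 51.7 and 50.6 in WT (log2 change 0.85, limma adjusted p = 0.000108). Slc7a5, a transporter of large neutral amino acids, had 10.8 to 13.9 FPKM against 1.01 to 1.44 (2.57), and Slc3a2, its partner chain, 35.9 to 41.6 against 13.9 to 15.6 (1.34). Among the rest of the list the stress-induced factors Atf3 (2.76) and Nupr1 (2.34) rose. Chac1, a glutathione-degrading enzyme, and Vldlr, a lipoprotein receptor, are in the same list and fell, by 1.17 and 1.23 on the log2 scale. Trib3 (0.21), Psph (0.15) and Shmt2 (-0.09) were not called as deposited, and Shmt2 was called lower after rescaling (-0.35, limma adjusted p = 0.0182).

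Of 8 sensing kinases and regulators of the same response 7 rose as deposited and 6 after rescaling. Ppp1r15a, which directs the removal of phosphate from the initiation factor eIF2α, had 43.2 to 58.2 FPKM in the knockout and 7.53 to 11.3 in WT (2.24). The kinase genes Eif2ak3 (0.66), Eif2ak1 (0.60) and Eif2ak2 (0.57) rose. Eif2ak4, whose product GCN2 senses uncharged transfer RNA, had a log2 change of 0.27, close to the median of all genes (0.25), and it was the gene whose call was lost after rescaling (0.06, limma adjusted p = 0.629). Of 7 cytosolic elongation factor genes 3 rose and 1 fell, shares near the 44.9% and 16.4% of all genes. Eef1a1, which brings charged transfer RNA to the cytosolic ribosome, had 2039 to 2478 FPKM in the knockout and 669 to 804 in WT (1.56), while its muscle form Eef1a2 had 230 to 341 against 355 to 429 and fell by 0.54. Eef1b2 (0.60) and Eif5a (0.51) rose. After rescaling 3 of these 7 genes were called higher and 3 lower.

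**Figure D5:**
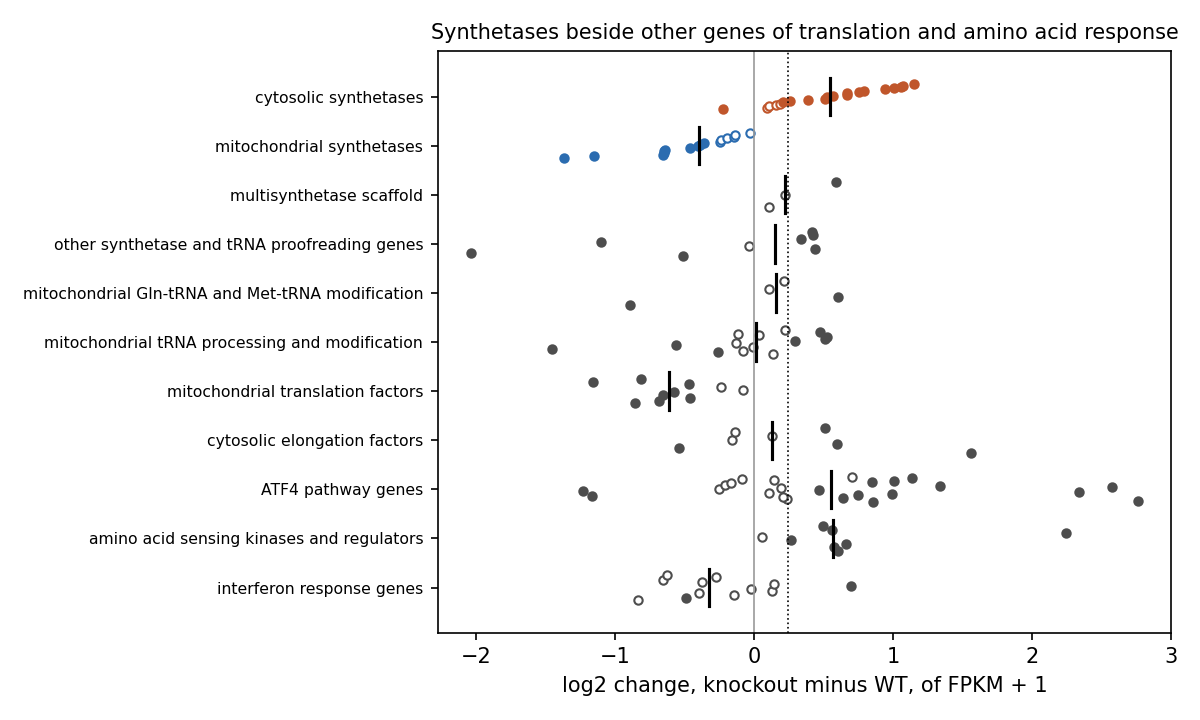
Log2 change (knockout minus WT, of FPKM + 1) of the cytosolic and mitochondrial synthetase genes and of the tested genes of 9 related lists, filled where called, with the median of each list as a vertical bar and the median of all genes tested (0.25) as a dotted line. The mitochondrial synthetases and translation factors lie to the left (medians -0.39 and -0.61), and the cytosolic synthetases mainly to the right (0.55). The ATF4 pathway genes also have a median of 0.55 but spread from -1.23 to 2.76. Medians were 0.57 for the amino acid sensing kinases and regulators and -0.33 for the interferon response genes.

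The authors' deposited table gave a like division with its own scaling. Of genes with a valid test it marks 23.1% as significantly higher and 22.8% as significantly lower in the knockout. Among the 20 cytosolic members the authors' deposited table marks 10 as higher and Dars as lower, and among the 16 mitochondrial members it marks 14 as lower and none as higher. Mars2 and Rars2 are the mitochondrial members without a mark in the authors' deposited table. Its log2 fold changes are 1.02 for Cars, 0.81 for Hars and -1.98 for Sars2. Gars, Sars, Vars, Farsa and Farsb, called higher here as deposited, carry no mark in the authors' deposited table.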

How the data were processed

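The members and gene lists were chosen with earlier results of these data known. Per the submitters' processing notes, stranded poly(A) libraries were aligned to mm10 with TopHat (application version 1.0.0), then quantified by Cufflinks and compared by Cuffdiff. Per the file headers, 23847 deposited rows hold each gene's FPKM in the 8 libraries. The 313 rows with a word in place of a number were left out, and 0.001, the deposited stand-in for 0, was set to 0. A further deposited table gives, from the authors, group FPKM, log2 fold changes, test statistics (a score), p-values and q-values. FPKM is a share of the library, so that a rise of abundant genes lowers the rest and a fall of abundant genes raises the rest.

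Limma (3.58.1, R 4.3.3) with trend was fitted to log2(FPKM + 1) for genes whose mean reached 1 FPKM over 8 libraries, 2-sided, with Benjamini-Hochberg adjustment over 11974 genes at 0.05, and was tested on simulated data. Pair ratios used exact permutation over 70 assignments. Groups and replicates follow the titles. KO1 to KO4 and WT1 to WT4 are named by these replicate numbers, and the deposited column headers number KO4 and all WT libraries otherwise. Per-library values are given for members called against their set, the 6 largest cytosolic rises and 6 largest mitochondrial falls, and other lists are named by at most 4 called genes of largest change. Wars, Iars, Aars2, Nars2 and Rars2, the members named as not called in other lists, the interferon genes named, and the divisions by complex and class were chosen after values were seen. Alternatives were rescaling, quantile normalization, other pseudocounts, minimums and variance models, a replicate block, and omitted libraries.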

Additional observations from a re-analysis of the deposited data

Results flagged for a closer look

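In each group of 4 libraries the highest and the lowest value of every member were compared with the spread of the others, over 72 groups. By this measure 2 values stood far from the rest of their group, and chance would pick out about 1 group in 20. Wars was at 35.5 FPKM in WT2, against 17.2 to 19.0 FPKM in the other WT libraries. Rars2 was at 14.7 FPKM in WT4, against 11.6 to 11.7 FPKM in the other WT libraries, and without WT4 its log2 change was 0.05 in place of -0.03, called in neither case.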

How the results depend on the processing

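No alternative called a mitochondrial synthetase higher, and no pair of matched genes had a lower ratio in every knockout library under those run for the ratios. Cytosolic genes called higher numbered 12 to 16 with 1 library left out, 11 after quantile normalization and 13 with the replicate block. The number called lower was 0 with array weights, 2 after rescaling, 2 after quantile normalization, 0 with the replicate block, and 0 to 1 with 1 library left out. Mitochondrial genes called lower numbered 9 to 12 with 1 library left out, 16 after rescaling, and 6 of the 10 that remained tested at a minimum mean of 5 FPKM, which takes out low genes. Rescaling reversed Farsa (-0.0058), Farsb (-0.0627), Iars (-0.0798), Kars (-0.19), Qars (-0.17) and Wars (-0.11), and quantile normalization reversed them to -0.0012, -0.051, -0.0749, -0.18, -0.17 and -0.11, both of which remove the common shift of 0.25. Rars2 was reversed with array weights (0.0234) and without WT4 (0.0518, the range with 1 library left out being -0.0627 to 0.0518), and the cause was not tested. Samples with the same replicate number had r from -0.04 to 0.14 between their deviations, within the range for different numbers (-0.12 to 0.16). No pairing by number was thus seen, but so few values cannot exclude one. With the block 13 cytosolic rises and 10 mitochondrial falls were called, and the pair ratios were not run with it. Without KO4 and WT3, a setting added after seeing the data, 13 cytosolic genes were higher, 1 lower, and 9 mitochondrial genes lower. The fragment totals are unknown, so the precision of the low members, such as Pars2, rests on the spread between libraries alone.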
